A study of Homo sapiens with 4 samples.

Results

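The class 3 semaphorins are secreted guidance proteins, and the genes described are 4 of their ligands (SEMA3A, SEMA3C, SEMA3D and SEMA3E), both neuropilin co-receptors (NRP1 and NRP2) and 3 plexin receptors (PLXNA1, PLXNA2 and PLXND1). These 9 genes were picked by symbol from the 20289 genes of the expression table, with their values already known, so their levels and ratios are given as a description and without a test. RNA came from SUM159-R, a paclitaxel-resistant derivative of the human triple-negative breast cancer line SUM159, kept in 150 nM paclitaxel and labelled wild type. Cells were given 500 nM paclitaxel together with 2.5 µM enzastaurin (the combination), 500 nM paclitaxel alone, 2.5 µM enzastaurin alone, or DMSO, for 24 h. Paclitaxel stabilises microtubules and enzastaurin inhibits protein kinase C. Each condition has 1 library, so the spread between cultures is unknown, and the 95% intervals given cover counting error alone. The labels do not say whether SUM159-R is a single clone or whether the maintenance paclitaxel was withdrawn before treatment.

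Class 3 semaphorins steer growing axons, vessels and migrating cells by collapsing their leading edge. Most of them bind a neuropilin, which holds the ligand, and signal through a plexin of the A or D type, whose cytoplasmic part acts on small GTPases. SEMA3E is an exception and binds plexin D1 directly. The proteins are cut by furin-type proteases, and neuropilins also bind vascular endothelial growth factors, so both ligand families share receptors on tumour cells.

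The libraries held 18236527 counts in the combination, 24699948 in paclitaxel, 21959564 in enzastaurin and 22576953 in DMSO. Levels are given as CPM, the count relative to the TMM-scaled library size (TMM factors of 0.978 to 1.01), or as FPKM, which is also divided by transcript length, and a count of 0 allows 0.120 to 0.168 CPM. Markers of a mesenchymal-type line were present in every library, with 2550 to 3293 FPKM summed over 6 genes, whereas PGR was listed at 0 and ESR1 had at most 3 counts. Of the epithelial markers, CDH1, EPCAM and KRT5 had at most 14 counts, while KRT8 and KRT18 were well expressed. ERBB2 was at 19.0 FPKM or more. Summed endothelial markers reached 0.15 to 0.34 FPKM over 4 genes, with CDH5, VWF and TEK at 0 to 4 counts and PECAM1 at 19 to 54. Of the leukocyte markers CD3E was at 0, PTPRC had 2 to 16 counts and CD68 had 278 to 469 counts (9.70 to 14.0 FPKM). Summed stromal markers reached 16.9 to 30.7 FPKM over 3 genes, most of it DCN (14.6 to 28.7 FPKM). Summed neuronal markers were at 1.89 FPKM in the combination, 4.01 in paclitaxel, 3.46 in enzastaurin and 4.04 in DMSO. The lower sum came from SNAP25, at 0.99 FPKM in the combination and 3.39 in DMSO. SYT1 (0.79 and 0.58 FPKM) and RBFOX3 (0.11 and 0.07) were higher in the combination than in DMSO. The part of these markers in the results was not tested.

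Among the 9 genes, NRP1, SEMA3C, PLXNA1 and PLXNA2 had the highest levels per transcript length. NRP1 was the highest in every library, at 52.5 FPKM in the combination, 84.1 in paclitaxel, 84.1 in enzastaurin and 90.0 in DMSO. SEMA3C followed at 22.6 to 29.5 FPKM, then PLXNA1 at 12.3 to 13.3 and PLXNA2 at 6.07 to 8.72. PLXND1 and NRP2 changed places between libraries, with 1.32 and 2.23 FPKM in the combination and 2.38 and 2.36 FPKM in DMSO, a DMSO difference within counting error. SEMA3A and SEMA3E were at 1.24 FPKM or less throughout, and SEMA3D was at 0.01 to 0.03 FPKM with 1 to 5 counts. SEMA3C made up 94.1% of the summed FPKM of the 4 ligands in the combination, 94.6% in paclitaxel, 96.9% in enzastaurin and 97.8% in DMSO. NRP1 made up 95.9% to 97.4% of the neuropilin FPKM.

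**Figure D1:**
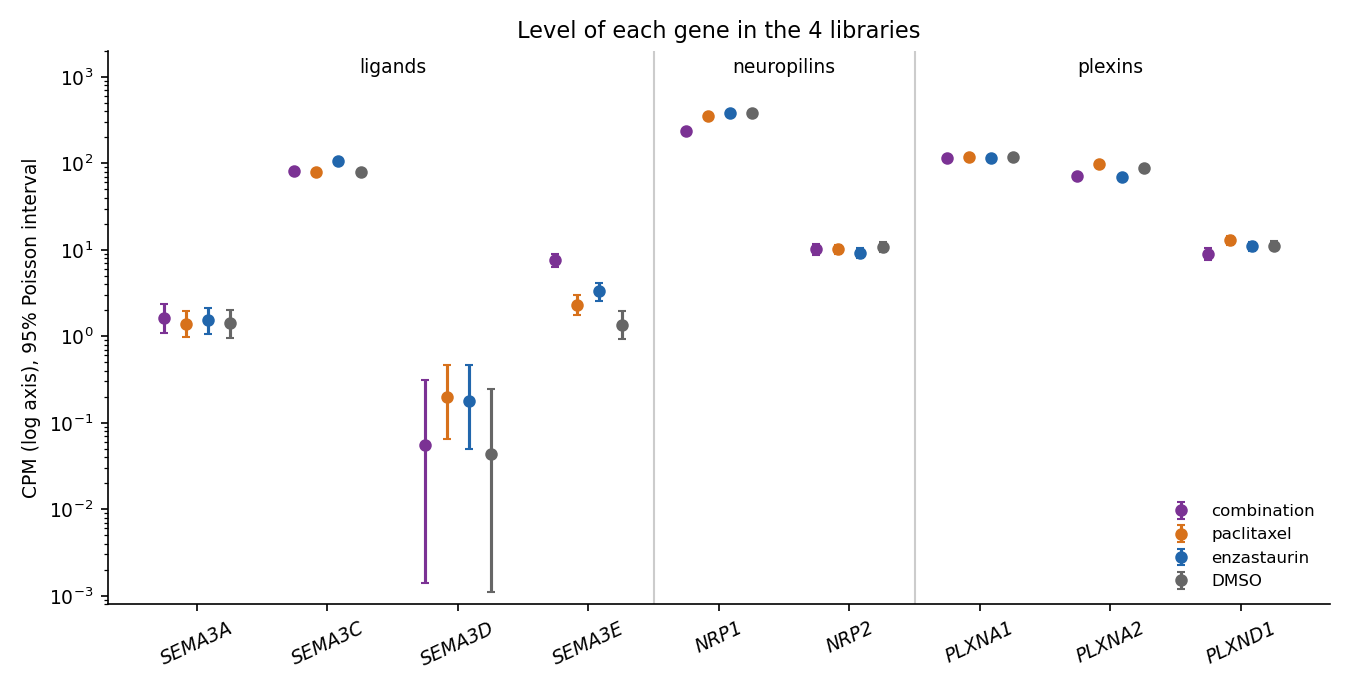
Level of each gene in CPM on a log axis, in the combination, paclitaxel, enzastaurin and DMSO libraries from left to right; points are 1 library each and bars are 95% Poisson intervals. SEMA3E stands highest in the combination at 7.57 CPM against 1.37 CPM in DMSO, NRP1 stands lowest in the combination, and SEMA3D lies near the detection limit.

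SEMA3E, the ligand of plexin D1, had the largest differences of the 8 genes that reached 20 counts in a library. It had 135 counts in the combination, 58 in paclitaxel, 73 in enzastaurin and 31 in DMSO, or 7.57, 2.33, 3.30 and 1.37 CPM in that order of conditions. Each drug alone stood above DMSO and the combination stood above both. The combination was 5.54-fold higher than DMSO (3.72 to 8.47), 3.25-fold higher than paclitaxel (2.38 to 4.51) and 2.30-fold higher than enzastaurin (1.71 to 3.09). Enzastaurin was 2.41-fold higher than DMSO (1.56 to 3.80), and paclitaxel 1.70-fold higher (1.08 to 2.72). The deposited FPKM values of 1.24 in the combination, 0.44 in paclitaxel, 0.55 in enzastaurin and 0.22 in DMSO kept this order. In bulk RNA, a different number of cells that express a gene and a different amount of RNA per cell cannot be told apart.

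SEMA3E was the single gene of the 9 past a 2-fold size rule, which asks for a ratio of 2 or more, an interval that excludes equal levels and at least 20 counts in the higher library. In 11843 genes that reached 20 counts in any library, 1.07% passed upward and 5.26% downward for the combination against DMSO, where 1 and 0 of the 8 measured genes did. Against paclitaxel the combination had 0.608% upward and 4.0% downward, and against enzastaurin 0.979% and 5.14%, with 1 and 0 of the 8 in each. Enzastaurin against DMSO had 0.439% upward and 0.448% downward, with 1 and 0 of the 8, and paclitaxel against DMSO had 0.811% and 0.422%, with 0 of the 8 in either direction. On the log2(FPKM + 1) scale, which shrinks low genes, SEMA3E was at 0.88 in combination over DMSO and passed the rule in no comparison. With a minimum of 100 counts it no longer passed in enzastaurin over DMSO.

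Counting intervals alone gave more calls. For the combination against DMSO, 1 of the 8 lay above equal levels (SEMA3E) and 3 below (NRP1, PLXNA2 and PLXND1), beside 31.7% and 30.9% of all measured genes. The PLXND1 call was lost with a trend in transcript length and GC content removed, where its log2 ratio was at -0.04. Against paclitaxel the same 1 and 3 genes did so, beside 29.9% and 28.9%. Against enzastaurin SEMA3E lay above, and SEMA3C and NRP1 below, beside 32.0% and 31.1%. For paclitaxel against DMSO, SEMA3E and PLXNA2 lay above and NRP1 below, beside 16.0% and 17%. For enzastaurin against DMSO, SEMA3E and SEMA3C lay above and PLXNA2 below, beside 15.3% and 15.4%. Since the genes were chosen with these values known, nothing is read from those shares. Removal of the length and GC trend also put PLXNA1 at 0.23, 0.17 and 0.24 in the combination over DMSO, paclitaxel and enzastaurin. It put PLXNA2 at 0.21 in combination over enzastaurin. Each lay above its counting interval, so the removal can add calls as well as end them.

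The SEMA3E counts were estimated by RSEM as 135.49, 57.99, 72.9 and 30.83 in the order combination, paclitaxel, enzastaurin and DMSO. Those of the other genes described were whole numbers. A fraction can arise where reads are shared with another gene, and its part in the SEMA3E counts was not tested. GENCODE 29 lists 2 genes that overlap SEMA3E, 1 of them on the opposite strand, and neither is a row of the table.

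The start regions of SEMA3E and SEMA3C are shown because these 2 ligands lie on the same arm of chromosome 7 and differed in response. Both genes have 2 RefSeq start windows on the minus strand of GRCh38.p14, each running from 250 bases before to 50 bases after a start. Capitals mark matches on either strand to the motifs searched, which were GGAATG (TEAD), TGANTCA (AP-1), GGGCGG (SP1) and CACGTG (E-box). The SEMA3E windows are chr7:83649090-83649389 and chr7:83641382-83641681, and the SEMA3C windows are chr7:80922340-80922639 and chr7:80919002-80919301.
SEMA3E outer window: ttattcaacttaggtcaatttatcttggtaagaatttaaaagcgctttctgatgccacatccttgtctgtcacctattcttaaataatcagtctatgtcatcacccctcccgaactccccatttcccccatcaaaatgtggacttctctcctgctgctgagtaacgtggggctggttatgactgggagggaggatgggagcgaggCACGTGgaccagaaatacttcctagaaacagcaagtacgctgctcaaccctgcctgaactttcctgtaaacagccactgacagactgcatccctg
SEMA3E inner window: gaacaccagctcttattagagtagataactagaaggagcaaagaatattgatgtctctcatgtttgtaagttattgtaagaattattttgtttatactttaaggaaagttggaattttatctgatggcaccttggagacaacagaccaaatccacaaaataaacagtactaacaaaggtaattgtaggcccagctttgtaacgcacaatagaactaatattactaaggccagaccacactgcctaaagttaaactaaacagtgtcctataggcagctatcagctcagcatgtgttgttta
SEMA3C outer window: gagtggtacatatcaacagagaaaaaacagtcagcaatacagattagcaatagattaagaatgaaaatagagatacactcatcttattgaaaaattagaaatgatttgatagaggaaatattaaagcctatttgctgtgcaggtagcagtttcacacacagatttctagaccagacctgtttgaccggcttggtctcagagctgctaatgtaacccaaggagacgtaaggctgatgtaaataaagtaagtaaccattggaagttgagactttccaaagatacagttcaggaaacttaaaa
SEMA3C inner window: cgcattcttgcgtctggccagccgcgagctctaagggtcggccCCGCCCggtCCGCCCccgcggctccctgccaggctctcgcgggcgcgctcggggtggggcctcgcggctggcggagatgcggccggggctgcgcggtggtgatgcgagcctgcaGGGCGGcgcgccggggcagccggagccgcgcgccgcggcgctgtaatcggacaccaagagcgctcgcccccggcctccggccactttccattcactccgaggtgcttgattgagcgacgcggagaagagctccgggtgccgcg
The outer SEMA3E window held 1 E-box, a palindrome that reads alike on both strands, and 7.26% of 35116 windows of this length hold one. The inner SEMA3E window and the outer SEMA3C window held no match to the 4 motifs. The inner SEMA3C window held 3 SP1 matches, a motif found in 45.0% of windows, and its GC content was 75.7%. The outer SEMA3C window was at 36.0% GC, and the SEMA3E windows were at 47.3% (outer) and 35.7% (inner). Over the 9 windows matched to 7 genes (SEMA3C, SEMA3D, SEMA3E, NRP2, PLXNA1, PLXNA2 and PLXND1), none held the TEAD motif, which 14.0% of windows hold, or the AP-1 motif, which 7.71% hold. A match is a run of letters and not a measured binding site.

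SEMA3C, a ligand of both neuropilins, was higher with enzastaurin alone and not in the combination. It was at 81.7 CPM (77.5 to 86.0) in the combination, 79.0 CPM (75.6 to 82.6) in paclitaxel, 107 CPM (103 to 112) in enzastaurin and 79.5 CPM (75.8 to 83.2) in DMSO. The enzastaurin library stood above the other 3, whose intervals overlapped. The log2 ratio of enzastaurin to DMSO was 0.43 (0.34 to 0.52). That of the combination was 0.05 (-0.05 to 0.15) to paclitaxel and -0.39 (-0.49 to -0.30) to enzastaurin. The combination lay 0.38 log2 units below the sum of the single-drug log2 ratios (departure -0.38, interval -0.52 to -0.25).

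SEMA3A, the axon repellent that acts through NRP1 and A-type plexins, had 29 counts in the combination, 35 in paclitaxel, 34 in enzastaurin and 32 in DMSO. Its 5 ratios lay between -0.01 and 0.21 on the log2 scale, with intervals as wide as -0.57 to 0.98 in combination over DMSO. SEMA3D had 1 count in the combination, 5 in paclitaxel, 4 in enzastaurin and 1 in DMSO, and no ratio is given for it.

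NRP1 was lower in the combination than in the other 3 libraries. NRP1, the co-receptor of SEMA3A and of VEGFA, had 4238 counts in the combination, 8828 in paclitaxel, 8336 in enzastaurin and 8574 in DMSO. These gave 238 CPM (230 to 245), 354 CPM (347 to 361), 377 CPM (369 to 385) and 378 CPM (370 to 386) in the same order. By CPM the enzastaurin and DMSO libraries overlapped, paclitaxel lay just below them, and the combination stood apart. The log2 ratio of the combination was -0.67 (-0.72 to -0.62) to DMSO, -0.58 (-0.63 to -0.52) to paclitaxel and -0.66 (-0.72 to -0.61) to enzastaurin. Paclitaxel over DMSO was at -0.10 (-0.14 to -0.05) and enzastaurin over DMSO at -0.01 (-0.05 to 0.04). By FPKM, enzastaurin over DMSO was at -0.098, and with a trend in transcript length and GC content removed at -0.051. Both lay below its counting interval, which starts at -0.050. By FPKM the combination was at -0.78 over DMSO and -0.68 over paclitaxel, each below its counting interval. Over enzastaurin it was at -0.68 by FPKM, within the interval. The departure from additive log2 effects was -0.57 (-0.64 to -0.50).

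NRP2, the co-receptor of SEMA3C and of VEGFC, was at 10.1 CPM (8.67 to 11.7) in the combination, 10.1 CPM (8.93 to 11.5) in paclitaxel, 9.17 CPM (7.95 to 10.5) in enzastaurin and 10.8 CPM (9.54 to 12.3) in DMSO. All 4 intervals overlapped. Its log2 ratio in combination over DMSO was -0.10 (-0.39 to 0.18).

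**Figure D2:**
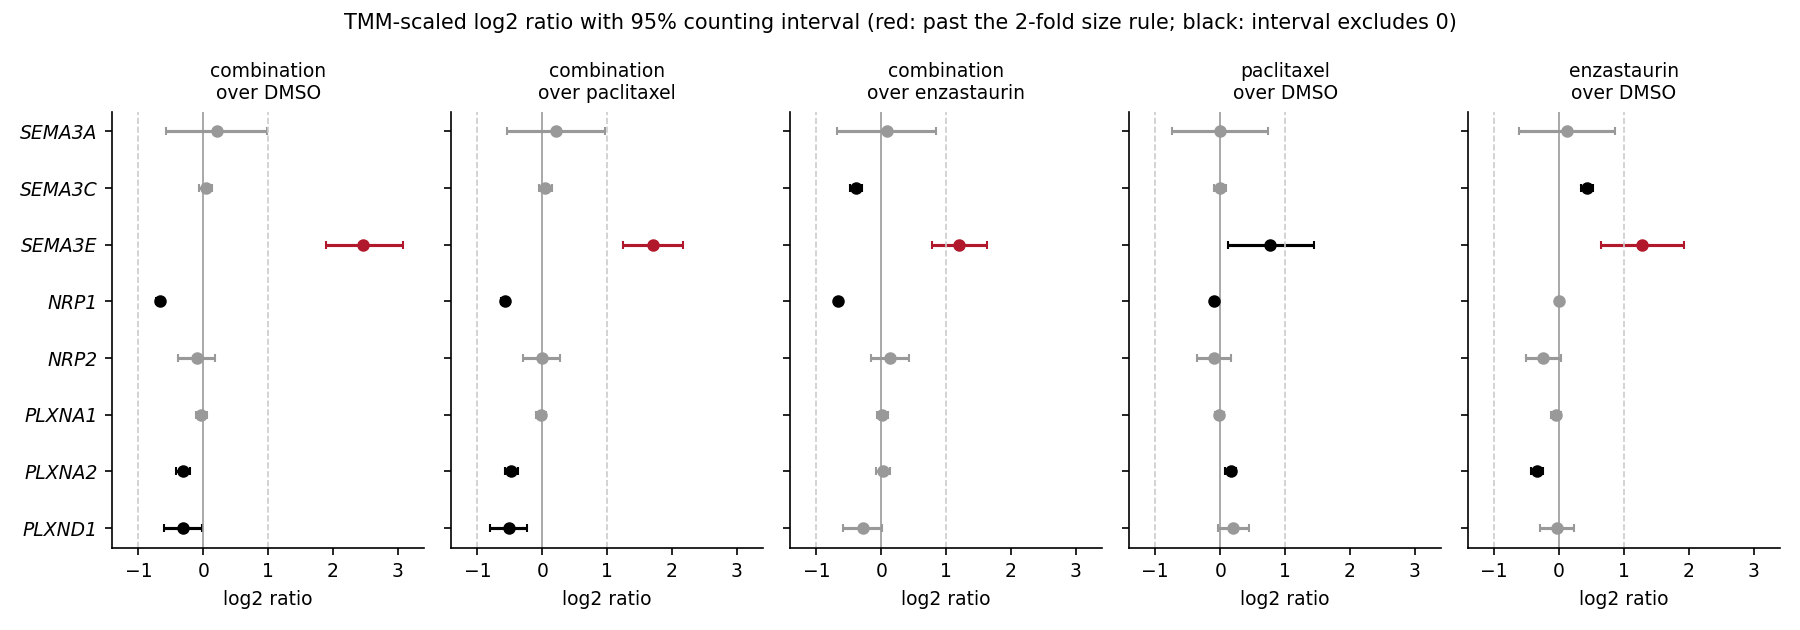
Log2 ratio of TMM-scaled counts for 8 of the genes (SEMA3D, with 5 counts or fewer, is left out) in the 5 comparisons, with 95% counting intervals and dashed lines at 2-fold. SEMA3E lies to the right of 0 in all 5 panels, at 2.47 for the combination against DMSO and 0.77 for paclitaxel against DMSO, and NRP1 lies between -0.67 and -0.58 in the 3 panels with the combination.

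Among the plexins, by TMM-scaled counts, PLXNA2 was lower in both libraries with enzastaurin, PLXND1 was lowest in the combination, and PLXNA1 differed little. PLXNA1, a signalling receptor for neuropilin-bound ligands, was at 117 CPM in the combination, 118 in paclitaxel, 115 in enzastaurin and 119 in DMSO. All 5 of its intervals included equal levels and lay within -0.12 and 0.10 on the log2 scale. This did not hold with a trend in transcript length and GC content removed. The combination then stood at 0.23 over DMSO, 0.17 over paclitaxel and 0.24 over enzastaurin, each above its counting interval. PLXNA2, its close relative, was at 71.4 CPM (67.5 to 75.4) in the combination, 99.4 CPM (95.5 to 103) in paclitaxel, 69.9 CPM (66.5 to 73.5) in enzastaurin and 88.7 CPM (84.9 to 92.7) in DMSO. Both libraries with enzastaurin were below both libraries without it, and their intervals did not overlap those of the other pair. The PLXNA2 log2 ratio of enzastaurin to DMSO was -0.34 (-0.44 to -0.25), that of the combination to paclitaxel was -0.48 (-0.58 to -0.38), and that of paclitaxel to DMSO was 0.16 (0.08 to 0.25).

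PLXND1, the direct receptor of SEMA3E, had 160 counts in the combination, 320 in paclitaxel, 242 in enzastaurin and 253 in DMSO. Its CPM was 8.97 (7.63 to 10.5) in the combination, 12.8 (11.5 to 14.3) in paclitaxel, 10.9 (9.60 to 12.4) in enzastaurin and 11.2 (9.83 to 12.6) in DMSO. Only the combination and paclitaxel intervals stood clear of each other. The log2 ratio of the combination was -0.52 (-0.80 to -0.24) to paclitaxel and -0.31 (-0.61 to -0.02) to DMSO. With a trend in transcript length and GC content removed, the ratio to DMSO was at -0.04, so the call against DMSO did not hold there, and the ratio to paclitaxel was at -0.33. Its departure from additive log2 effects was -0.49 (-0.86 to -0.11), and was not recomputed with that trend removed.

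Departures with an interval that excludes 0 were seen for SEMA3C, NRP1 and PLXND1, all negative, among the 8 measured genes. Over the 11150 genes that had 20 counts or more in every library, 26.3% had such an interval below 0 and 26.7% above. With library size alone there were 4 such genes, PLXNA2 at -0.19 being the fourth. SEMA3E was at 0.43 (-0.32 to 1.18), so its combination level was within counting error of the product of both single-drug ratios. Departures were not recomputed with the trend in transcript length and GC content removed. With that removal PLXND1 was at -0.04 in the combination, 0.29 in paclitaxel and 0.03 in enzastaurin, each over DMSO. PLXNA1 was at 0.23, 0.06 and -0.02 in the same order. The PLXND1 call, and the lack of a call for PLXNA1, may therefore not hold there.

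For the same 8 genes the median log2 ratio of the combination was -0.07 to DMSO, -0.01 to paclitaxel and 0.02 to enzastaurin. Against DMSO it was -0.01 for paclitaxel and -0.02 for enzastaurin. The median over all 11843 genes was between -0.005 and 0 in each. These comparisons share libraries, so their values are not independent of one another.

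Counts and FPKM parted for PLXND1, SEMA3A and NRP2. RSEM divides a gene's count by a length that depends on the transcripts it assigns reads to, so the deposited count and FPKM together imply a length in each library. For PLXND1 this was 6.65 kb in the combination, 4.44 kb in paclitaxel, 5.25 kb in enzastaurin and 4.71 kb in DMSO, within the range of 507 to 7094 bases of its 4 coding transcripts in GENCODE 29. The combination over DMSO ratio of implied lengths was 1.41, above 99.7% of 10334 genes with at least 1 FPKM in every library. PLXND1 was at -0.85 on the log2 scale by FPKM and -0.31 by counts in this comparison. SEMA3A had an implied length of 6.63 kb in the combination, 1.71 kb in paclitaxel, 4.30 kb in enzastaurin and 5.06 kb in DMSO, from 29 to 35 counts. Its 0.83 FPKM in paclitaxel against 0.28 FPKM in DMSO stood beside counts of 35 in paclitaxel and 32 in DMSO. NRP2 was at -0.10 by counts and 0.13 by FPKM in paclitaxel over DMSO, where its implied length was 3.97 kb in paclitaxel and 4.62 kb in DMSO. In enzastaurin over DMSO it was at -0.24 by counts and -0.01 by FPKM. PLXNA2, with 1 coding transcript, stayed at 11.5 kb in all 4 libraries. PLXNA1, also with 1, was at 8.98 kb in DMSO and 9.31 kb in each of the others. GENCODE 29 gives 11444 bases for PLXNA2 and 9066 for PLXNA1, and it may not be the transcript set the authors used.

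**Figure D3:**
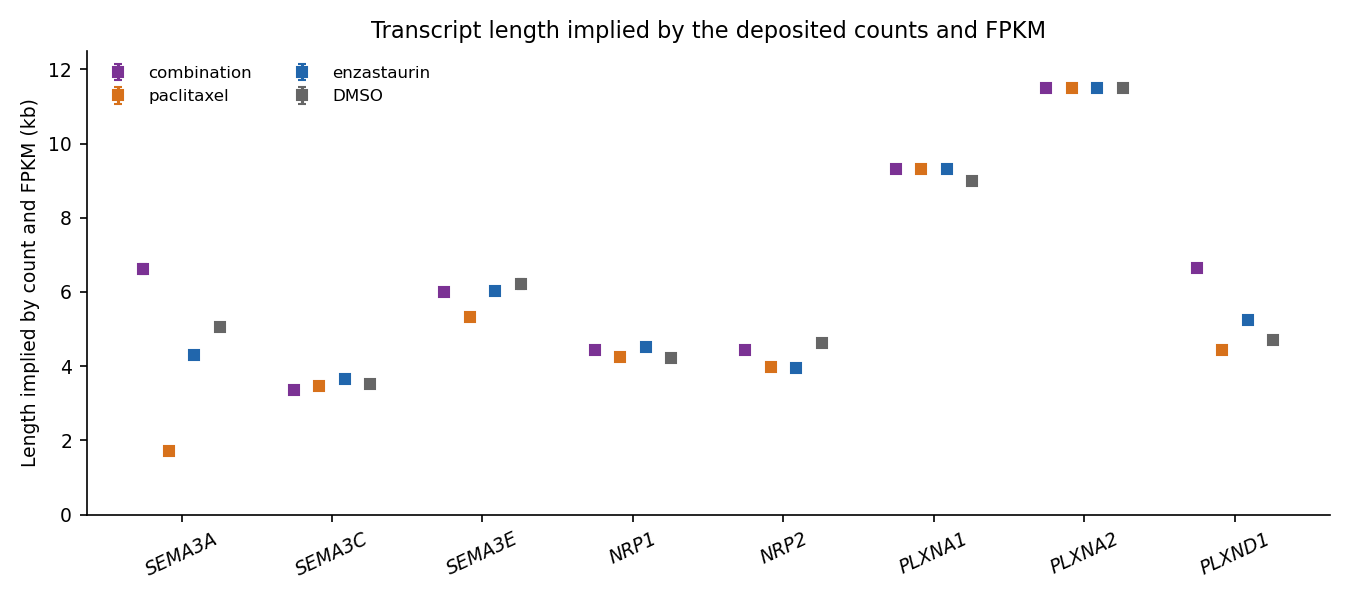
Transcript length in kb implied by the deposited count and FPKM of each gene, for the combination, paclitaxel, enzastaurin and DMSO libraries from left to right; bars, mostly hidden by the squares, show the rounding of FPKM. PLXND1 stands highest in the combination at 6.65 kb and SEMA3A lowest in paclitaxel at 1.71 kb, while PLXNA2 stays at 11.5 kb.

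The 4 ligand genes lie within 4.44 Mb on the long arm of chromosome 7 in hg38, all on the minus strand. SEMA3C spans 80742538 to 80922359, SEMA3E 83363238 to 83649113, SEMA3A 83955777 to 84492724 and SEMA3D 84995553 to 85186855. ABCB1, which encodes an efflux pump that carries paclitaxel, starts 4.06 Mb beyond the SEMA3E start. The table holds 14 genes from SEMA3C to ABCB1, of which 9 reached 20 counts. ABCB1 was at 451 CPM in the combination, 353 in paclitaxel, 328 in enzastaurin and 287 in DMSO, and the combination stood 0.65 log2 units above DMSO (0.61 to 0.70). The other 5 measured genes between the semaphorins and ABCB1 lay between -0.50 and -0.03 in this comparison. SEMA3E thus stood above every measured neighbour, and its nearest measured neighbour, SEMA3A, was at 0.20 (-0.57 to 0.98). The other genes described lie elsewhere: NRP1 on chromosome 10 (33177492 to 33336262), NRP2 on chromosome 2 (205681990 to 205798133), PLXNA1 and PLXND1 on chromosome 3 (126988594 to 127037392 and 129555175 to 129606818) and PLXNA2 on chromosome 1 (208022242 to 208244320).

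**Figure D4:**
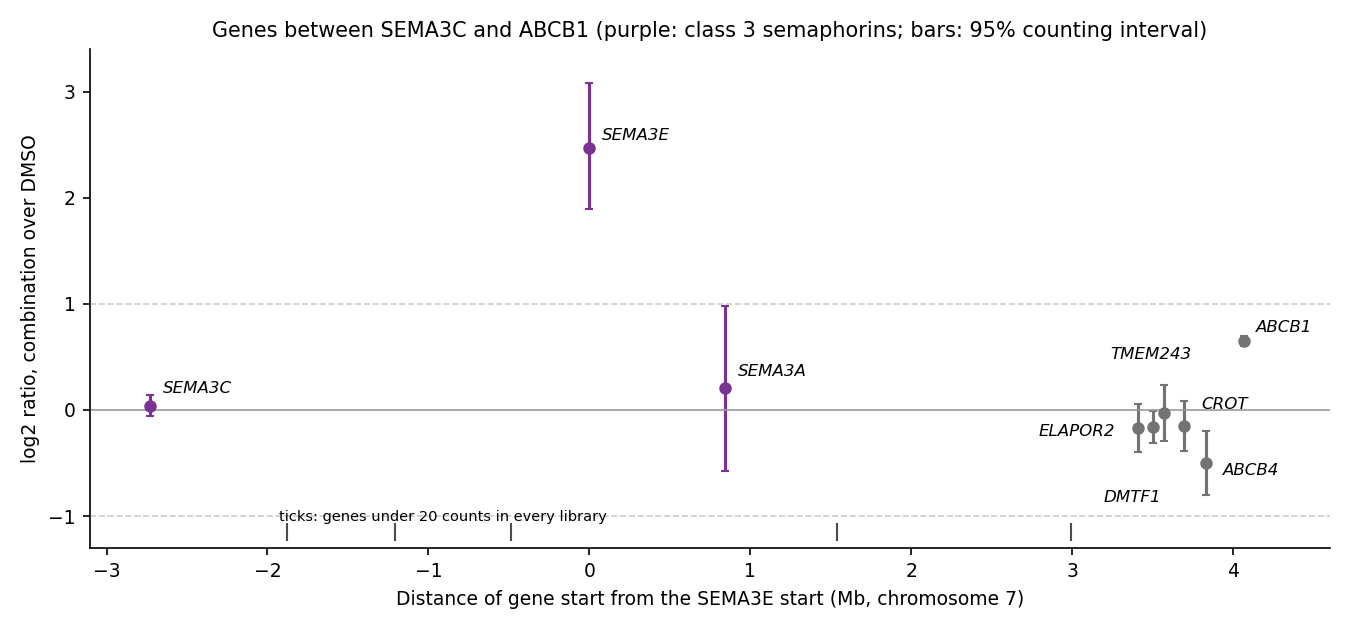
Log2 ratio in combination over DMSO of genes that reached 20 counts between SEMA3C and ABCB1, against the distance of the gene start from that of SEMA3E in Mb; bars are 95% counting intervals and ticks mark genes with fewer counts. SEMA3E is at 2.47 and ABCB1 at 0.65, and no other gene reaches 1.

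Of the 3 remaining class 3 genes, SEMA3B was lower in the combination, opposite to SEMA3E. SEMA3B, a candidate tumour suppressor, had 50 counts in the combination, 159 in paclitaxel, 117 in enzastaurin and 202 in DMSO, and every treated library was below DMSO. The combination stood at -1.67 (-2.15 to -1.22) against DMSO and -1.19 (-1.67 to -0.72) against paclitaxel on the log2 scale, past the size rule in both. For SEMA3F, a ligand of NRP2, the counts were 84 in the combination, 121 in paclitaxel, 87 in enzastaurin and 131 in DMSO. SEMA3F was at -0.29 (-0.71 to 0.11) in combination over DMSO and at -0.56 (-0.96 to -0.15) in enzastaurin over DMSO. SEMA3G had 13 counts in the combination, 26 in paclitaxel, 11 in enzastaurin and 22 in DMSO, and all its intervals included equal levels.

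Of 13 semaphorins of classes 4 to 7, which are membrane-bound or attached, 10 reached 20 counts, and 4 of them passed the rule downward and 0 upward for the combination against DMSO (5.26% and 1.07% of all measured genes). The median of the 10 was -0.70. Those past the rule were SEMA5A, at -1.42 (-1.56 to -1.28), SEMA4C, a ligand of plexin B2, at -1.49 (-1.78 to -1.21), SEMA6D, a ligand of plexin A1, at -1.01 (-1.33 to -0.70), and SEMA4G, at -1.70 (-3.02 to -0.56). SEMA5A was at 29.4 CPM in the combination, 61.7 in paclitaxel, 80.7 in enzastaurin and 78.7 in DMSO. Against enzastaurin, 4 of the 10 passed downward in the combination and 1 upward, beside 5.14% and 0.979% of all measured genes. The gene upward was SEMA7A, which binds plexin C1, with 25 counts in the combination against 12 in enzastaurin. SEMA6B had the highest FPKM of these genes, at 11.8 to 18.0. Of 6 other plexins 5 were measured and none passed the rule in any of the 5 comparisons. Over all measured genes, 0.422% to 5.26% passed in either direction of a comparison. PLXNB2, the highest of these plexins, was at -0.37 (-0.44 to -0.31) in combination over DMSO.

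Among 24 intracellular effectors 18 were measured, with 2 past the rule downward and 0 upward in each comparison of the combination with another library. The downward shares over all measured genes were 5.26% against DMSO, 4.0% against paclitaxel and 5.14% against enzastaurin. DPYSL2, which encodes the collapsin response mediator CRMP2 that acts below SEMA3A, was at 48.4 CPM in the combination, 151 in paclitaxel, 157 in enzastaurin and 166 in DMSO. Its log2 ratio was -1.78 (-1.88 to -1.67) in combination over DMSO. ARHGEF11, a RhoA exchange factor that binds B-type plexins, was at 13.5 CPM in the combination, 39.8 in paclitaxel, 45.4 in enzastaurin and 38.9 in DMSO, and its log2 ratio was -1.52 (-1.74 to -1.32). Against DMSO, DPYSL2 was at -0.13 with paclitaxel and -0.08 with enzastaurin, and ARHGEF11 at 0.03 and 0.22. The median of the 18 was -0.09, and RAC1, the highest of them, was at 0.12 (0.08 to 0.16).

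Of 11 shared ligands and co-receptors 6 were measured, and 1 passed the rule downward for the combination against DMSO, beside 5.26% of all measured genes. KDR, the VEGF receptor that partners NRP1, had 30 counts in the combination, 139 in paclitaxel, 81 in enzastaurin and 106 in DMSO, and the combination stood at -1.47 (-2.11 to -0.88) against DMSO on the log2 scale. MET, a receptor tyrosine kinase with the highest mean FPKM of these genes, was at 37.0 to 39.2 FPKM. VEGFA, a ligand of NRP1 and KDR, was at 30.1 FPKM in the combination, 40.9 in paclitaxel, 35.7 in enzastaurin and 37.9 in DMSO, and at -0.29 (-0.39 to -0.20) in combination over DMSO. None of the 4 measured proteases passed the rule, and FURIN, which cuts class 3 semaphorins, was at 0.17 (0.08 to 0.26).

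**Figure D5:**
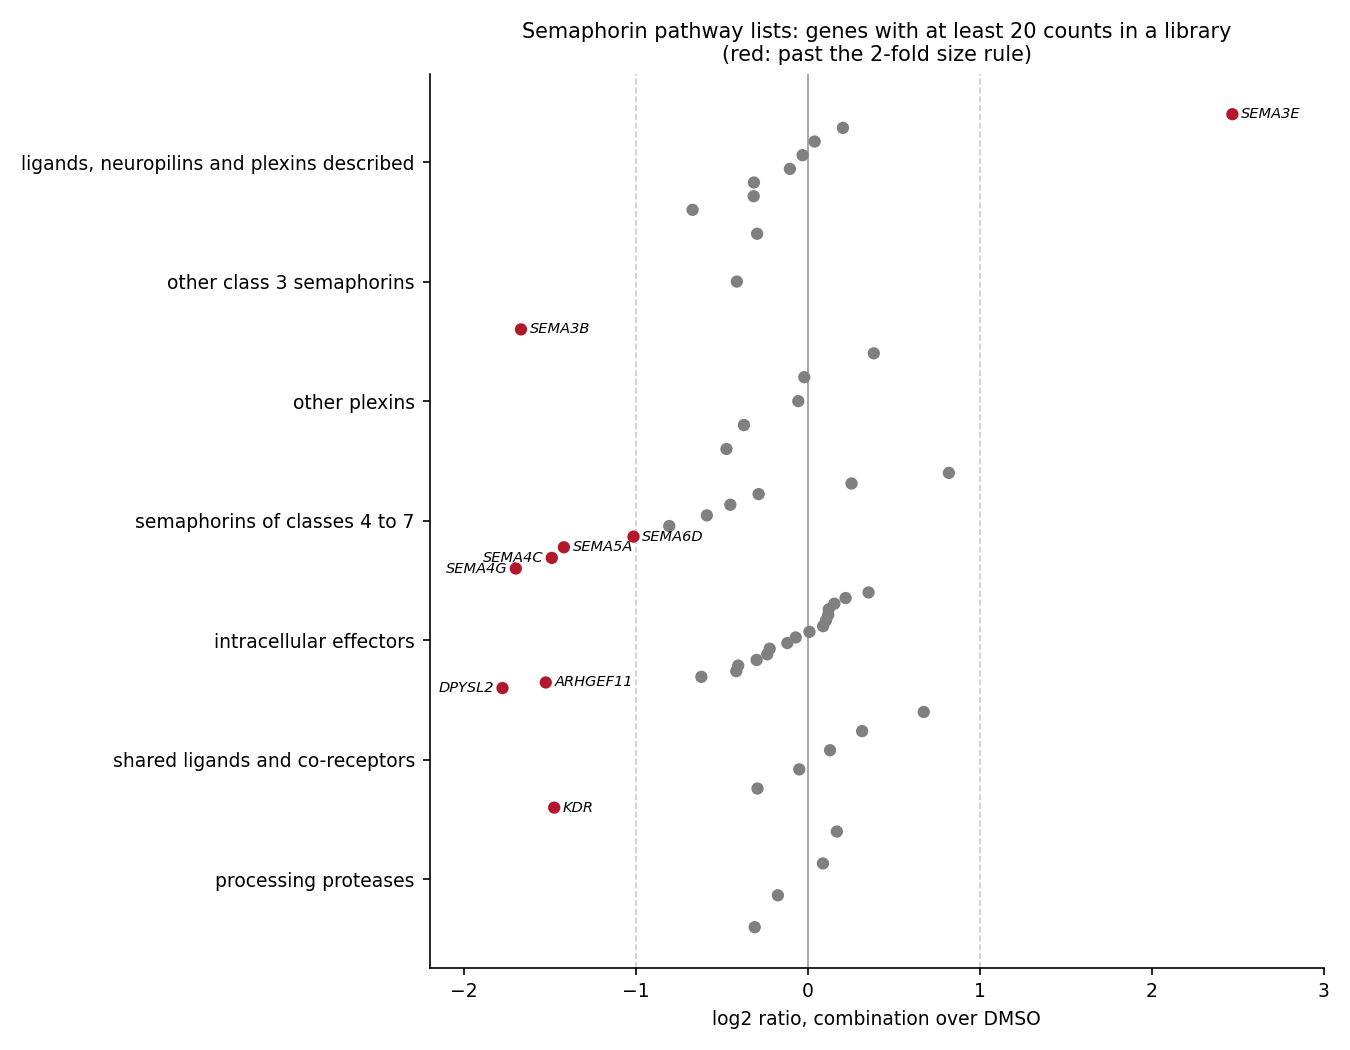
Log2 ratio in combination over DMSO for the measured genes of each pathway list; each point is 1 gene, red points passed the 2-fold size rule and dashed lines mark 2-fold. SEMA3E is the single red point right of 0, and 8 red points lie to the left; over all measured genes 1.07% passed upward and 5.26% downward.

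The genes with the pattern most like that of SEMA3E were sought among 10097 genes whose mean count was 100 or more, by the root mean square difference of the 3 log2 ratios to DMSO. The nearest was TIMM23B-AGAP6, at 0.48 log2 units, followed by the unnamed gene ENSG00000285943 at 0.53 and the aldo-keto reductase gene AKR1C2 at 0.56. AKR1C2 had 7167 counts in the combination, 5880 in paclitaxel, 3056 in enzastaurin and 2138 in DMSO. Its log2 ratios to DMSO were 1.32 with paclitaxel and 0.55 with enzastaurin, the reverse order of SEMA3E, at 0.77 and 1.27. TIMM23B-AGAP6 was at 0.83 with paclitaxel and 0.84 with enzastaurin, and at 1.74 in the combination against 2.47 for SEMA3E. The likeness of these genes to SEMA3E is therefore loose. TIMM23B-AGAP6 is a readthrough gene and AKR1C2 has near-identical copies, so the counts of both depend on how shared reads were split.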

How the data were processed

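Per the labels, cDNA was made from total RNA by random priming and read on a NovaSeq6000. Per the submitters' processing notes RSEM and the hg38 genome were used; their versions, the aligner and strand use are not stated there. The authors deposited expected counts, not scaled for depth, and FPKM values, scaled by the authors for length and library size.

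Counts were rounded and scaled with TMM (edgeR 4.0.16, from genes reaching 20 counts in any library). Ratios have exact 95% Clopper-Pearson conditional intervals, CPM exact Poisson intervals, and departures from additive log2 effects delta-method intervals. All cover counting error only, and reads carried no molecular identifiers, so they are not independent molecules. The ratio script was tested on simulated data. With 1 library per condition no test was made. Members and lists were chosen with earlier results of these data known. Named genes were all members, list genes past the size rule in any comparison or highest by FPKM, and the 3 genes most like SEMA3E. SEMA3F, SEMA3G, VEGFA and ABCB1 with its neighbours fall outside this rule and were named after their values were seen. Coordinates come from GENCODE 29 and promoters from RefSeq (GRCh38.p14). Alternatives were DESeq2 1.42.0 size factors, library size alone, TMM without a filter, count minimums of 0 and 100, a 1.5-fold limit, deposited FPKM with pseudocounts of 1 and 0.1, and removal of a trend in transcript length and GC content (longest coding transcript, lowess). R 4.3.3 and Python 3.11.15 were used. A search for a protease site in the protein sequences was planned and not made.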

Additional observations from a re-analysis of the deposited data

How the results depend on the processing

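No paired analysis was possible because there is 1 library for each condition, and for that reason no library could be left out. Of 45 recomputed counts of genes past the size rule, 35 equalled the reported count, which was 0 or 1 in every comparison. A 1.5-fold limit gave 2 genes in combination over DMSO, 2 in combination over enzastaurin and 1 in paclitaxel over DMSO. A minimum of 100 counts gave 0 in enzastaurin over DMSO, where SEMA3E had 73 counts. Deposited FPKM with a pseudocount of 1, which shrinks low genes such as SEMA3E, gave 0 in combination over DMSO, combination over paclitaxel, combination over enzastaurin and enzastaurin over DMSO. With a pseudocount of 0.1, FPKM gave 3 in combination over paclitaxel (SEMA3E, with SEMA3A at -1.45 and PLXND1 at -1.09 on the log2 scale) and 1 in paclitaxel over DMSO (SEMA3A, at 1.29). Of 240 recomputed single ratios, 216 stayed within the counting interval, 24 moved beyond it and 0 of those with an interval excluding equal levels changed sign. Removal of the length and GC trend put PLXNA1 at 0.23 and PLXNA2 at -0.15 in combination over DMSO, and PLXNA2 at 0.21 in combination over enzastaurin. It put PLXND1 at -0.04 in combination over DMSO, which ends that call. Departures whose interval excludes 0 numbered 3 with DESeq2 size factors and 4 with library size alone, against 3 as reported; on FPKM with a pseudocount of 0.1 the departure was -1.73 for SEMA3A, -0.19 for NRP2 and -0.92 for PLXND1. SEMA3E was at 2.43 and NRP1 at -0.65 in combination over DMSO with that trend removed. Departures were not recomputed with it removed. The size factors of DESeq2, library size alone and TMM without a filter moved none of the single ratios beyond its interval. Depth limits SEMA3A and SEMA3D most, and counting intervals say nothing of the spread between cultures.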
